A study of Mus musculus with 4 samples.

Results

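Histone H3 acetylation was measured at the genes that encode 10 core or accessory components of the Polycomb complexes in mouse embryonic stem (mES) cells. The genes were taken by name from the GENCODE annotation, and all 10 were found among the 22359 protein-coding genes with a transcription start site (TSS) on chromosomes 1 to 19, X and Y. They are Ezh1, Ezh2, Suz12, Eed and Jarid2 of Polycomb repressive complex PRC2, and Rnf2, Ring1, Bmi1, Cbx7 and Phc1 of PRC1. The series holds 4 ChIP-seq libraries of untreated mES cells, labelled as the E14 line of strain 129P2/OlaHsd at passage 25 to 30. One library was made with a rabbit polyclonal antibody to H3 acetylated at lysine 9 (H3K9ac). A pair of libraries was made with mouse monoclonal antibodies, 13HH3 and 7G8, both to H3 acetylated at lysine 14 (H3K14ac), and the last is input DNA, sequenced without immunoprecipitation.

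Polycomb proteins keep developmental genes silent. PRC2 methylates histone H3 to H3K27me3 and PRC1 ubiquitinates histone H2A, and in mES cells the pair of complexes occupies CpG-rich promoters of genes that act later in development. Acetylation of H3 at lysines 9 and 14 is found at promoters of genes that are being transcribed, and also at some promoters that are inactive. The values concern the acetylation at the genes that encode the Polycomb proteins, not the places where the proteins bind.

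The libraries held between 19313927 and 23839094 deposited reads, called tags here. Each antibody has 1 library, so no replicate error and no test can be given, and intervals are 95% exact intervals that cover counting error only. A tag count from a population of cells cannot tell apart fewer acetylated cells and less acetylation per cell. As a check on the cell type, 7 of 8 embryonic stem cell markers were at 2-fold or more over input in H3K9ac, with Esrrb at a log2 ratio of 0.76 as the exception. The share of all genes at 2-fold in H3K9ac was 54.5%. The log2 ratios of 8 fibroblast markers ran from -0.76 at Lum to 1.01 (0.50 to 1.54) at Col1a1, and with 1 added to both levels, as in the calls below, 0 of 8 were at 2-fold.

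The DNA upstream of 4 of the starts is shown because the comparisons turn on these genes. Ezh1 and Ezh2 are paralogues that differed in acetylation, Bmi1 had the most CpG dinucleotides around its start, and Phc1 had the fewest CpGs and the most tags. Each sequence is 250 bases of the mm9 reference (NCBIM37), written 5′ to 3′ on the strand of the gene, with every CpG in capitals. Each window is the nearest 250 bases upstream of the start used that overlap no annotated exon, and it ends 14 bp before the TSS of Ezh1, 312 bp before that of Ezh2, and 1 bp before those of Bmi1 and Phc1. The Phc1 window lies inside the gene, since other transcripts of Phc1 start 777 and 1642 bp upstream of the start used.
Ezh1, chr11:101087778-101088027, minus strand: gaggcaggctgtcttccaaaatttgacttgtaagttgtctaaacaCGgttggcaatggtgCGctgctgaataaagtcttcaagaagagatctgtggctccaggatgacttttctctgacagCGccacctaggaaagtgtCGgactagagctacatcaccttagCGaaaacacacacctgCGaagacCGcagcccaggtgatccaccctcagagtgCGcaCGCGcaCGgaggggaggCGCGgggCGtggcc
Ezh2, chr6:47545341-47545590, minus strand: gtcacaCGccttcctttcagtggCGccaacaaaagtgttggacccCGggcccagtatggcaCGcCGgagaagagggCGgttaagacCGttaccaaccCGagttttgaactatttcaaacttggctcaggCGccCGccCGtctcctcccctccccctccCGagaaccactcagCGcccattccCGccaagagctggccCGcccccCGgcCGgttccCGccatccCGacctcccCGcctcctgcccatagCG
Bmi1, chr2:18598395-18598644, plus strand: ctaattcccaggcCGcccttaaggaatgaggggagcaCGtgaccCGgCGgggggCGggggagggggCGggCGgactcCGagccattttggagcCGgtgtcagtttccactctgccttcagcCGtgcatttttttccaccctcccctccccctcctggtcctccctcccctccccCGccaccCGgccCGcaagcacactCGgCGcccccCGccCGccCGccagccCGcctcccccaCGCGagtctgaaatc
Phc1, chr6:122288883-122289132, minus strand: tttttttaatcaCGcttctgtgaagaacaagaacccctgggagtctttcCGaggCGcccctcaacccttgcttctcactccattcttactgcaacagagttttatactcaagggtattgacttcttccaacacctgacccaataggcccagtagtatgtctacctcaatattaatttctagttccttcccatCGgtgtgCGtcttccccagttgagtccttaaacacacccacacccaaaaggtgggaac
These windows hold 14 CpGs upstream of Ezh1, 21 upstream of Ezh2, 21 upstream of Bmi1 and 5 upstream of Phc1. Their GC content is 55.2%, 65.2%, 70.4% and 46.4%.

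All 10 members were at 2-fold or more over input in H3K9ac at their start, whereas only a part of them were in H3K14ac. Tags were counted within 2 kb either side of the TSS and scaled to a library of 10000000 tags, which gives the normalised tags used below. A gene was called where its normalised tags plus 1 were at least 2 times those of input plus 1. In H3K9ac 10 of 10 members were called, against 54.5% of all genes. In 13HH3 6 of 10 members were called, against 14.5% of all genes, and in 7G8 5 of 10 members, against 14.6%. The 7G8 count depended on the window, and within 1 kb it was 2 of 10 members, against 21.9% of all genes. At 1.5-fold, 10 of 10 members were called in H3K9ac, 8 in 13HH3 and 6 in 7G8, against 63.6%, 33.4% and 33.3% of all genes. At 4-fold, 7 of 10 members were called in H3K9ac, 1 in 13HH3 and 0 in 7G8, against 27.7%, 0.935% and 0.555% of all genes. No count was tested in this single-library design. The median log2 ratio to input of the 10 members with the added 1 was 2.75 in H3K9ac, 1.43 in 13HH3 and 1.03 in 7G8, where the medians of all genes were 1.19, 0.32 and 0.31.

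**Figure D1:**
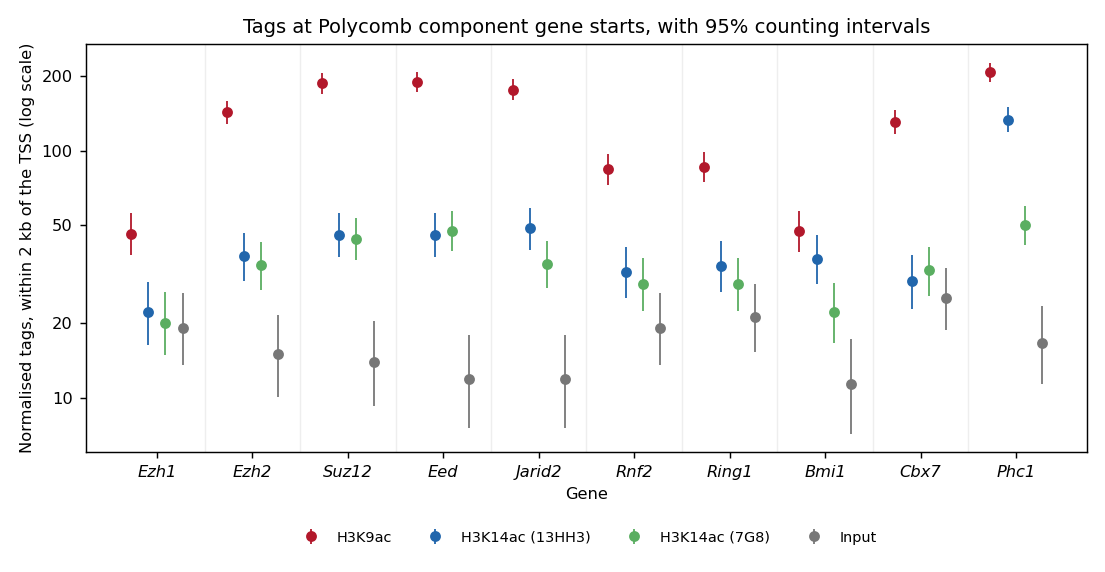
Normalised tags, per 10000000 tags of the library, within 2 kb of the TSS (vertical axis, log scale) of each member gene (horizontal axis) in the 4 libraries, as points with 95% Poisson counting intervals. H3K9ac lies above input at every member, from 46.2 at Ezh1 to 208 at Phc1, and the 13HH3 point of Phc1, at 134, lies far above the other 13HH3 points.

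Among the PRC2 genes, the catalytic subunit Ezh2, its partners Suz12 and Eed and the accessory factor Jarid2 each carried more than 3 times the H3K9ac of Ezh1. Ezh2, the H3K27 methyltransferase of dividing cells, had 143 normalised tags in H3K9ac, 37.5 in 13HH3, 34.4 in 7G8 and 15.0 in input. Ezh1, its paralogue with weaker methyltransferase activity, had 46.2 in H3K9ac, 22.2 in 13HH3, 20.1 in 7G8 and 19.2 in input. The H3K9ac level of Ezh1 was the lowest of the 10, with an interval that overlaps that of Bmi1, and its H3K14ac levels were within the counting interval of its input, which was 13.5 to 26.4. The ratio of Ezh2 tags to Ezh1 tags was 3.10 (2.49 to 3.90) in H3K9ac, 1.69 (1.17 to 2.46) in 13HH3 and 1.71 (1.18 to 2.49) in 7G8, over windows of the same width. In input the same ratio was 0.78 (0.46 to 1.31). Ezh1 stood near the middle of all genes in H3K9ac, at the 50.8th percentile of the ratio to input, and Ezh2 at the 96.2nd.

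Suz12, the zinc finger subunit that PRC2 needs for stability, had 188 normalised tags in H3K9ac, 45.8 in 13HH3, 44.0 in 7G8 and 13.98 in input. Eed, which binds trimethylated H3K27 and stimulates the enzyme, had 191, 45.8, 47.4 and 11.9 normalised tags in the same order. Jarid2, a DNA-binding cofactor that helps bring PRC2 to its sites, had 177 in H3K9ac, 48.6 in 13HH3, 34.8 in 7G8 and 11.9 in input. These 3 genes had nearly the same level of H3K9ac within 2 kb, with intervals that overlap, and all ranked above 99% of genes by the ratio to input. Within 1 kb of the start they differed, with 133 H3K9ac tags at Jarid2, 269 at Suz12 and 295 at Eed, and the log2 ratio of Jarid2 was 2.79 there and 3.01 with its 5′-most start, where it was 3.89 within 2 kb of the start used. Within 1 kb Jarid2 was not at 2-fold in H3K14ac, with log2 ratios of 0.92 in 13HH3 and 0.16 in 7G8, where those within 2 kb were 2.03 and 1.55. From 900 to 200 bp upstream of Jarid2, input was at 0 in every 100 bp step except that from 500 to 400 bp. The few tags in that stretch therefore cannot be read as a lack of acetylation. The fold of H3K9ac over input was 13.4 (9.10 to 20.6) at Suz12, 16.0 (10.5 to 25.5) at Eed and 14.9 (9.76 to 23.7) at Jarid2. The log2 ratio of Eed to input in 7G8 was 1.99 (1.34 to 2.71). That of Suz12 in 7G8 was 1.66 within 2 kb and 0.86 within 1 kb, where Suz12 was not at 2-fold. Input was low at Eed and Jarid2, with 23 tags each, so that their ratios rest on few input tags.

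Among the PRC1 genes the levels ran from 47.5 normalised H3K9ac tags at Bmi1 to 208 at Phc1. Rnf2 and Ring1, the paralogous ubiquitin ligases of PRC1 that are also called Ring1B and Ring1A, had 2 kb totals that could not be told apart in any library. Rnf2 had 84.1 normalised tags in H3K9ac, 32.4 in 13HH3, 28.9 in 7G8 and 19.2 in input. Ring1 had 86.3, 34.2, 28.9 and 21.2 in the same order. The ratio of Rnf2 tags to Ring1 tags was 0.98 (0.80 to 1.19) in H3K9ac, 0.95 (0.67 to 1.33) in 13HH3 and 1.00 (0.71 to 1.42) in 7G8. Neither gene was called in 13HH3 or 7G8, with log2 ratios to input of 0.76 (0.16 to 1.37) and 0.60 (-0.00 to 1.21) at Rnf2, and of 0.69 (0.12 to 1.28) and 0.45 (-0.13 to 1.04) at Ring1. Within 1 kb Rnf2 was called in 13HH3, with a log2 ratio of 1.23, where 23.3% of all genes were called.

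Bmi1, also called Pcgf4, the subunit that pairs with the ubiquitin ligase in canonical PRC1, had 47.5 normalised tags in H3K9ac, 36.5 in 13HH3, 22.2 in 7G8 and 11.4 in input. It had about as few H3K9ac tags as Ezh1, but also fewer input tags, 22 against 37. By the H3K9ac ratio to input Bmi1 stood at the 71.5th percentile and Ezh1, at 2.41-fold (1.64 to 3.60), at the 50.8th. Its 13HH3 level was like that of Ezh2, which had 2.49-fold (1.61 to 3.96) over input on 29 input tags. The log2 13HH3 ratio of Bmi1 to input depended on window and start, with 1.68 within 2 kb, 2.78 within 1 kb and -0.11 at the start cluster with the most transcripts, 3355 bp downstream, an alternative chosen after the data were seen. Cbx7, a chromodomain protein that reads H3K27 methylation and is the main Cbx protein of mES cells, had 131 in H3K9ac, 29.6 in 13HH3, 32.7 in 7G8 and 25.4 in input. Cbx7 had 5.17-fold (3.81 to 7.14) H3K9ac over input, but 1.17-fold (0.79 to 1.73) in 13HH3 and 1.29-fold (0.89 to 1.88) in 7G8. Over input, Bmi1 had 4.17-fold (2.62 to 6.92) H3K9ac, an interval that overlaps that of Cbx7. In 13HH3 Bmi1 had 3.21-fold (1.98 to 5.40), an interval that does not overlap that of Cbx7. The Cbx7 window had 49 input tags, the most of the 10, and with input taken from 10 kb either side its log2 ratio rose from 0.22 to 0.80 in 13HH3 and from 0.37 to 0.95 in 7G8. With its 5′-most start the Cbx7 ratios were 0.84 in 13HH3 and 0.68 in 7G8. Phc1, a polyhomeotic subunit whose SAM domain lets PRC1 form clusters, had 208 in H3K9ac, 134 in 13HH3, 49.9 in 7G8 and 16.6 in input. Phc1 had the most tags of the 10 members in each ChIP library, and the next member in 13HH3 was Jarid2, at 48.6. In H3K9ac and 7G8 its interval overlaps that of Eed, the next member. Over input Phc1 had 12.6-fold (8.79 to 18.6) H3K9ac and 3.01-fold (2.02 to 4.60) 7G8. Eed had more, 16.0-fold (10.5 to 25.5) and 3.98-fold (2.53 to 6.53), with intervals that overlap those of Phc1.

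**Figure D2:**
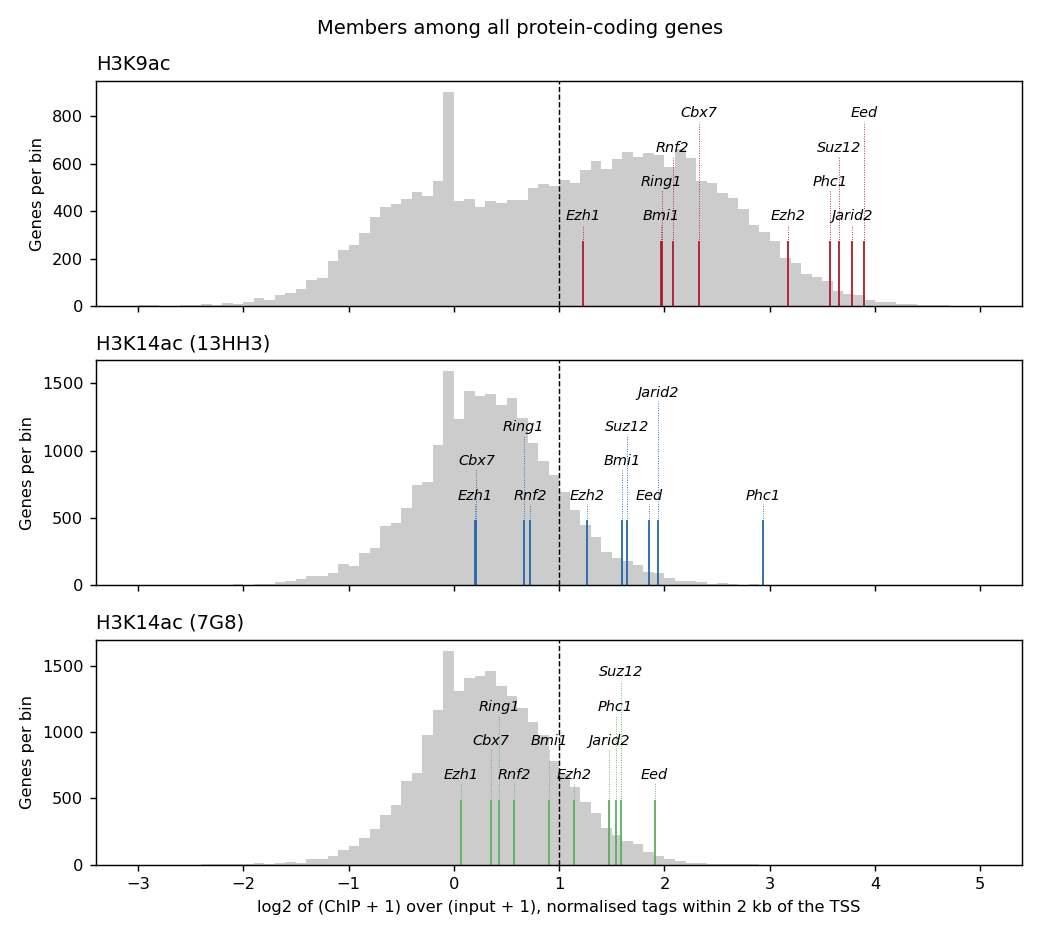
Number of protein-coding genes (vertical axis) by the log2 of ChIP plus 1 over input plus 1, in normalised tags within 2 kb of the TSS (horizontal axis), in grey, with the 10 members as coloured lines and the 2-fold limit as a dashed line. All members lie right of the limit in H3K9ac, 6 in 13HH3 and 5 in 7G8, and Phc1 stands alone at the far right in 13HH3.

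The ratio of H3K14ac to H3K9ac differed among the members. At the starts used, the log2 ratio of 13HH3 to H3K9ac normalised tags was lowest at Cbx7, at -2.15 (-2.56 to -1.75). This log2 ratio was between -2.06 and -1.87 at Ezh2, Suz12, Eed and Jarid2, whose intervals overlap that of Cbx7. It was -1.38 at Rnf2, -1.33 at Ring1 and -1.06 at Ezh1. It was highest at Phc1, at -0.64 (-0.86 to -0.43), and at Bmi1, at -0.38 (-0.81 to 0.05). The intervals of Bmi1 and Phc1 do not overlap those of Cbx7 and of the 4 strongly acetylated PRC2 genes. With the added 1, the member median was -1.60 and the median of all genes -0.84. The ratio is not corrected for input, and only 54.5% of all genes were called in H3K9ac, so these medians do not compare genes of like H3K9ac. At Ezh1 and Cbx7 13HH3 was 1.16-fold (0.74 to 1.83) and 1.17-fold (0.79 to 1.73) of input, so background tags can make up most of the numerator there. The antibodies differ in affinity and background, so the ratio orders genes within these libraries and gives no stoichiometry of the acetylated lysines.

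The antibodies to the same acetylated lysine gave like levels within 2 kb of the start at most members and unlike levels at Phc1. Within 1 kb the member median of the log2 ratio of 7G8 to 13HH3 was -0.72, where it was -0.15 within 2 kb. The log2 ratio of 7G8 to 13HH3 had intervals that include 0 at 7 members, Ezh1, Ezh2, Suz12, Eed, Rnf2, Ring1 and Cbx7, with values from -0.24 to 0.14. Of these, Ezh1, Rnf2, Ring1 and Cbx7 were called in neither H3K14ac library, so their like levels can be those of background tags. Among the members called in 13HH3, the interval included 0 at Ezh2, Suz12 and Eed and not at Jarid2, Bmi1 and Phc1. The ratio of 7G8 to 13HH3 was -0.48 (-0.91 to -0.05) at Jarid2 and -0.72 (-1.25 to -0.20) at Bmi1. At Phc1 it was -1.42 (-1.74 to -1.11), which is 49.9 normalised tags in 7G8 and 134 in 13HH3. Only 0.10% of all genes had a lower ratio than Phc1, and 5.00% a lower one than Bmi1. By the ratio of 13HH3 to input, Phc1 stood at the 99.96th percentile of all genes, and by the ratio of 7G8 to input at the 96.6th. Which of these libraries is nearer to the acetylation at Phc1 was not tested.

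The libraries also placed their tags at different distances from the start. This measure was chosen after the values had been seen. Of the tags within 2 kb, the share within 1 kb of the TSS had a member median of 55.7% in H3K9ac, 65.0% in 13HH3, 47.3% in 7G8 and 62.9% in input. Over genes with at least 10 tags the medians were 65.9%, 60.3%, 58.6% and 52.9%. The share was higher in 13HH3 than in 7G8 at 8 of 10 members, against 55.2% of all genes. At Bmi1 it was 68.4% (56.9 to 78.4) in 13HH3 and 28.3% (16.8 to 42.3) in 7G8, and at Suz12 73.7% (63.9 to 82.1) and 44.8% (35.0 to 54.8), so that the intervals of the pair do not overlap at these genes. In input the share was 31.8% (13.9 to 54.9) at Bmi1, near that of 7G8, and 77.8% (57.7 to 91.4) at Suz12, near that of 13HH3. Within 1 kb of the TSS, 2 of 10 members, Eed and Phc1, were at 2-fold in 7G8, a share near that of all genes, which was 21.9% there and 14.6% within 2 kb.

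The side of the TSS on which the tags fell varied from gene to gene. Ezh2 had 193 H3K9ac tags upstream and 139 downstream, which is 41.9% (36.5 to 47.4) downstream, with 44.8% in input. Eed leaned into the gene, with 171 tags upstream and 271 downstream, or 61.3% (56.6 to 65.9), but its 23 input tags leaned the same way, at 78.3%. Bmi1 leaned furthest, with 70.9% (61.5 to 79.2) of H3K9ac, 86.1% (76.5 to 92.8) of 13HH3 and 75.5% (61.7 to 86.2) of 7G8 tags downstream, while 11 of its 22 input tags lay there. Upstream of Bmi1, 13HH3 had 11 tags and 7G8 13, beside the 11 of input. The log2 ratios to input there were -0.16 (-1.51 to 1.18) in 13HH3 and -0.06 (-1.34 to 1.24) in 7G8. Downstream they were 2.46 (1.54 to 3.53) in 13HH3 and 1.56 (0.57 to 2.67) in 7G8. The intervals of the sides do not overlap in 13HH3, but they do in 7G8. Input was at 0 in every 100 bp step from 300 bp upstream to 200 bp downstream of the Bmi1 TSS. The few tags next to this start therefore cannot be read as a lack of acetylation. Ezh1 had 70.1% of its H3K9ac tags downstream, and 73.0% in input.

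The antibodies to H3K14ac differed in the share of tags downstream at Rnf2 and Jarid2. At Rnf2, 75.7% (64.0 to 85.2) of 13HH3 tags and 40.6% (28.9 to 53.1) of 7G8 tags lay downstream, with 56.8% in input. At Jarid2, 32.4% (23.6 to 42.2) of 13HH3 tags and 59.0% (47.7 to 69.7) of 7G8 tags did, with 34.8% (16.4 to 57.3) in input. The intervals of 13HH3 and 7G8 do not overlap within either gene, but those of 7G8 include 50% at both. Against the input of the same side, 13HH3 at Jarid2 had nearly equal log2 ratios, 2.08 upstream and 1.92 downstream, and 7G8 had 0.88 (-0.04 to 1.86) and 2.31 (1.22 to 3.60). At Rnf2 these ratios were -0.08 (-1.15 to 1.00) upstream and 1.17 (0.42 to 1.98) downstream in 13HH3, and 1.05 (0.19 to 1.99) and 0.11 (-0.76 to 1.00) in 7G8, so that the intervals of the sides overlap. At Ring1 32.4% (22.0 to 44.3) of 13HH3 tags lay downstream, with 50.7% in 7G8, 49.5% in H3K9ac and 53.7% in input. Over the 10 members the median share downstream was 54.4% in H3K9ac, 47.6% in 13HH3, 54.9% in 7G8 and 55.2% in input, against 57.2%, 58.2%, 54.0% and 53.9% over genes with at least 10 tags. With the 5′-most start the member median in 13HH3 was 67.4%, and with each side divided by its own input that in H3K9ac was 46.7%, so that the direction depended on these settings.

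**Figure D3:**
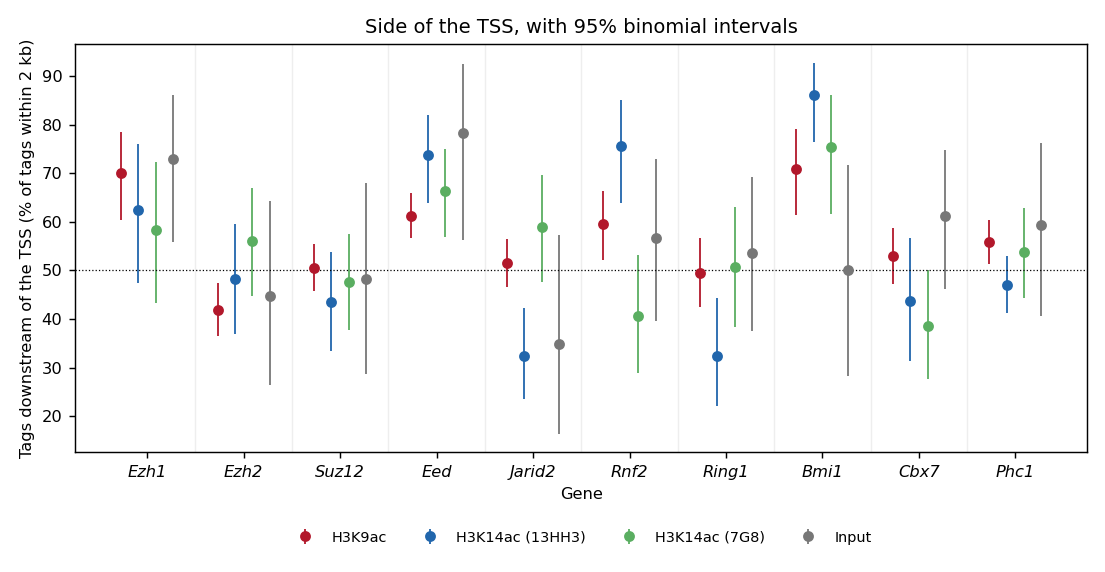
Percent of the tags within 2 kb that lie downstream of the TSS (vertical axis) at each member (horizontal axis) in the 4 libraries, with 95% Clopper-Pearson intervals and a dotted line at 50%. The 13HH3 points range from 32.4% at Jarid2 and Ring1 to 86.1% at Bmi1, and input, with its few tags, has the widest intervals.

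Most members had fewer H3K9ac tags over the start itself than in the richest windows beside it, which are maxima over many positions. At Suz12 the 500 bp centred on the TSS held 39 H3K9ac tags, the richest 500 bp upstream 124 and the richest downstream 84. At Ezh2 the values were 40, 96 and 82, and at Cbx7 32, 57 and 59. Eed was an exception, with 113 H3K9ac tags in the central 500 bp, 100 upstream and 122 downstream. Phc1, with 84, 89 and 86, and Ring1, with 42, 46 and 43, were nearly level. The start used for Phc1 is 1 of several that the annotation gives. In the tag profiles of Phc1, the stretch from 1200 to 800 bp upstream held 1 H3K9ac, 2 13HH3, 0 7G8 and 0 input tags, while the flanks on both sides were rich in tags, and since input was at 0 too, this gap cannot be read as a lack of acetylation.

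**Figure D4:**
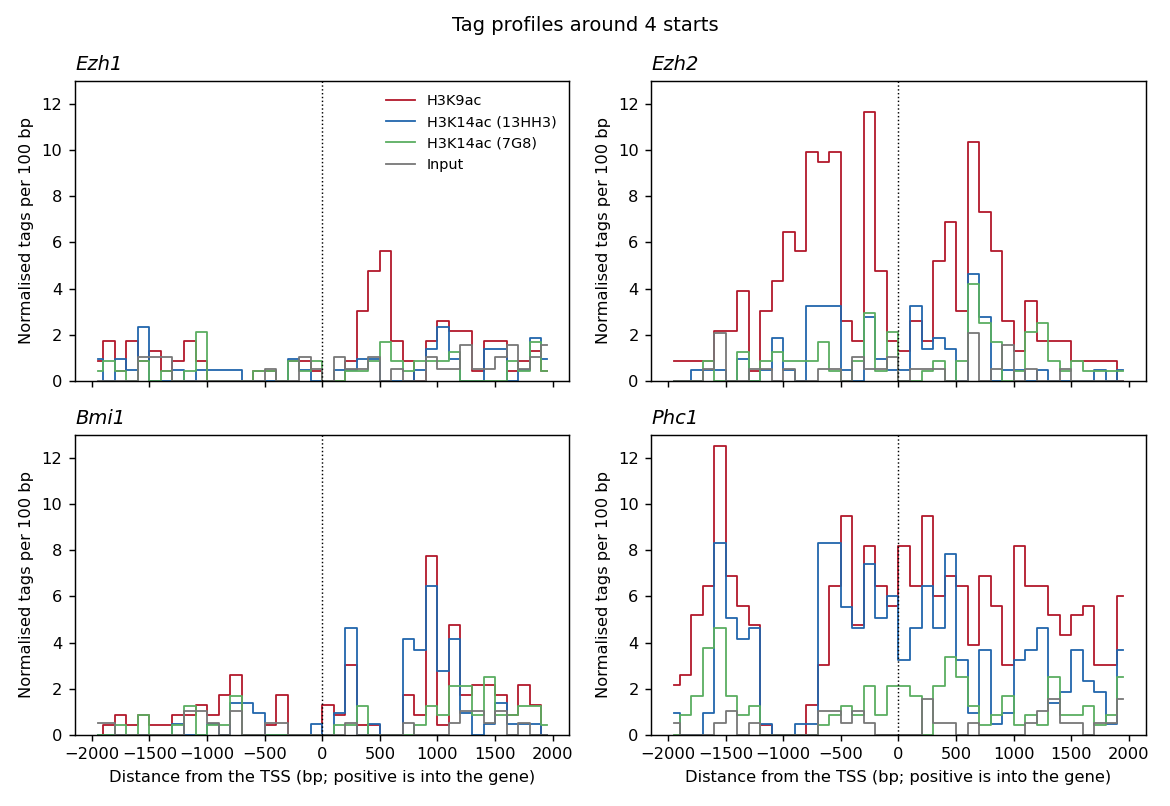
Normalised tags in steps of 100 bp (vertical axis) by distance from the TSS in bp (horizontal axis, positive into the gene) for Ezh1, Ezh2, Bmi1 and Phc1 in the 4 libraries. Ezh2 has H3K9ac on both sides of its start, Bmi1 has 78 of its 110 H3K9ac tags downstream, and at Phc1 the 13HH3 line reaches the H3K9ac line in the 1 kb upstream of the start, with 46.2 and 45.3 normalised tags there, and lies below it farther out, with a gap in every library from 1200 to 800 bp upstream.

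The stretch of H3K9ac around the start was longer than the median of all genes at 9 members. It was measured as the run of consecutive 1 kb bins at 2-fold or more over input that includes a bin next to the TSS, within 20 kb either side. The run was 18 kb at Suz12, from 3 kb upstream to 15 kb downstream, 16 kb at Cbx7, from 6 kb upstream to 10 kb downstream, and 15 kb at Phc1, from 9 kb upstream to 6 kb downstream. It was 13 kb at Jarid2, 10 kb at Ezh2 and Eed, 6 kb at Ring1, 5 kb at Rnf2, 3 kb at Bmi1 and 1 kb at Ezh1. The member median was 10 kb and the median of all genes 2 kb. The member median was 2.5 kb with bins at 4-fold, and 17 kb with input scaled over bins with few tags. In Cbx7 the long run of H3K9ac came without a bin of H3K14ac next to the TSS at 2-fold in either library. The bin 2 to 1 kb upstream of the Cbx7 TSS was at 2.75-fold in 13HH3 and 3.18-fold in 7G8, with 3 input tags.

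The 13HH3 run was 11 kb at Phc1, from 8 kb upstream to 3 kb downstream, and from 0 to 4 kb at the other 9 members. The member median was 2 kb and that of all genes 0 kb, and the run of Eed, 4 kb, was at the 98.1st percentile. The richest 13HH3 bin of Phc1 was the bin 5 to 4 kb upstream of the TSS, with 101 tags in 13HH3, 138 in H3K9ac, 43 in 7G8 and 5 in input. In 7G8 the run at Phc1 was 1 kb, although bins 5 to 1 kb upstream of its start were also at 2-fold or more, since the bin next to the TSS upstream had 20 tags in 7G8 and 8 in input. Over all 10 members the 7G8 run was between 0 and 3 kb.

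Some members had their richest H3K9ac bin away from the start. At Suz12 it was 19 to 18 kb upstream, with 160 H3K9ac, 69 13HH3, 38 7G8 and 8 input tags, and the annotation has no start of any gene within 2 kb of that bin. At Ring1 it was 7 to 6 kb upstream, with 158 H3K9ac, 50 13HH3, 40 7G8 and 11 input tags, and starts of Rxrb, Slc39a7 and the transcript Gm20427 lie within 2 kb of it, genes named here after the values were seen. At Bmi1 it was 5 to 4 kb upstream, with 138 H3K9ac, 67 13HH3, 34 7G8 and 12 input tags, and the start of Commd3 lies 4634 bp upstream of Bmi1 on the same strand. At Ezh1 it was 20 to 19 kb upstream, with 51 H3K9ac and 16 input tags, beside 43 and 9 in the first 1 kb downstream of the TSS. The Ring1 window also holds the start of Mir219-1, 412 bp upstream, and H2-Ke6 starts 3380 bp upstream, so that tags of the Ring1 window cannot be assigned to Ring1 alone. The other 8 members have no start of another gene within 5 kb. Jarid2 had H3K9ac from 11 to 5 kb upstream as well, with 25 to 66 tags per 1 kb bin and 2 to 7 in input.

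**Figure D5:**
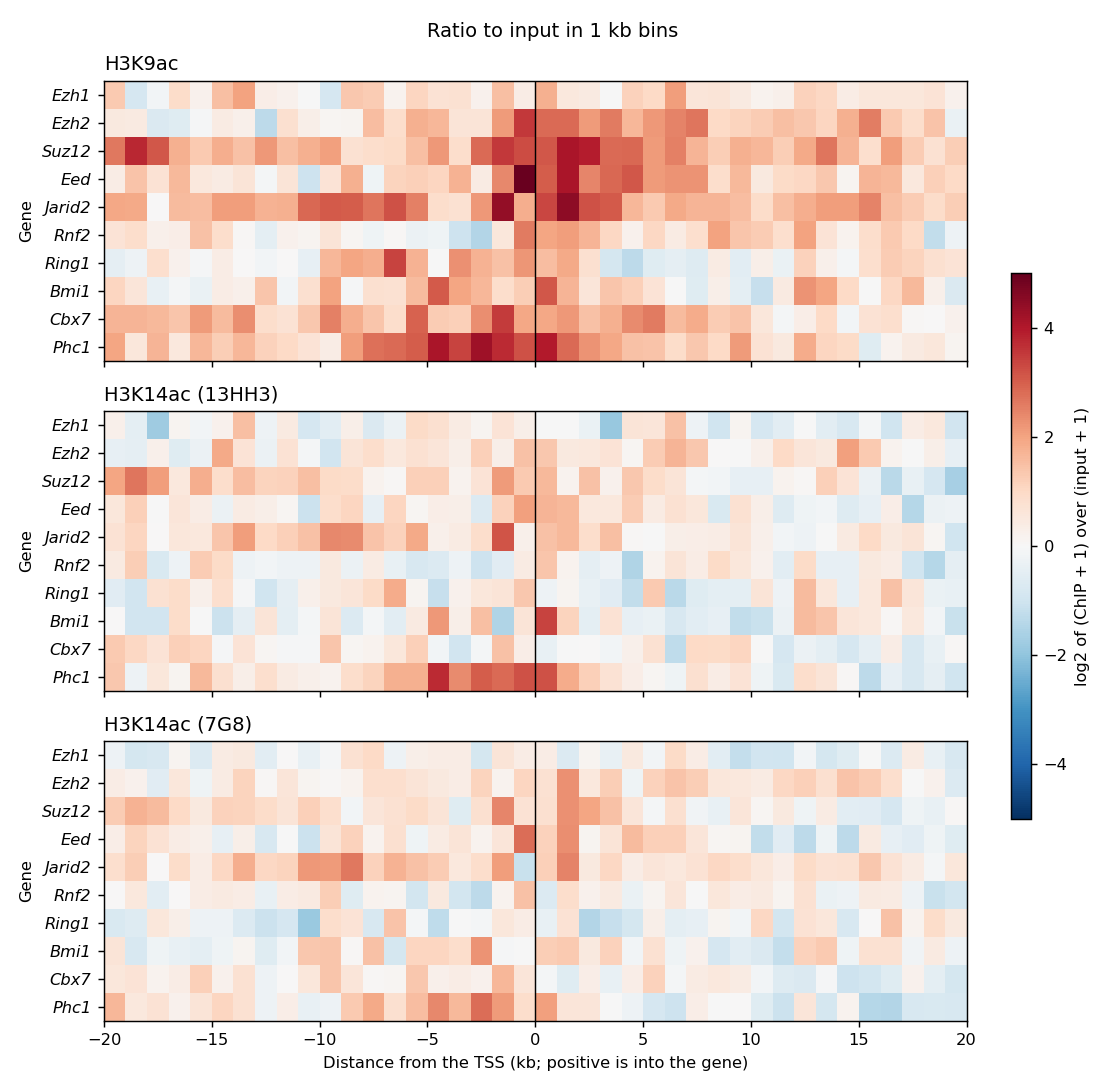
Heat map of the log2 of ChIP plus 1 over input plus 1, in normalised tags, for each member (rows) in 1 kb bins by distance from the TSS in kb (horizontal axis), in 3 panels for H3K9ac, 13HH3 and 7G8. Red is above input and blue below. The H3K9ac panel shows the runs of 18 kb at Suz12 and 15 kb at Phc1 and the bins upstream of Suz12, Ring1 and Bmi1, and in the 13HH3 panel the bins upstream of Phc1 stand out.

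Acetylation in the gene bodies was low except for H3K9ac. The body was taken from 2 kb downstream of the TSS to the end of the gene, and levels were divided by its length. It can hold part of the H3K9ac run at the start, which reached 15 kb downstream at Suz12 and 10 kb at Cbx7 and Jarid2. The bodies of Ezh1, Ezh2, Suz12, Bmi1, Phc1 and Jarid2 also hold other annotated starts of these genes. The Suz12 start 2511 bp downstream had a log2 H3K9ac ratio of 4.89 (3.31 to 7.19) within 1 kb, on 3 input tags. Jarid2, with a body of 188 kb, had 12.2 normalised H3K9ac tags per kb in the body, against 44.2 around the start and 4.08 for input in the body. With 5346 H3K9ac and 1485 input tags, its log2 ratio to input in the body was 1.58 in H3K9ac, 0.47 (0.38 to 0.57) in 13HH3 and 0.69 (0.60 to 0.78) in 7G8. Jarid2 was the member with the highest body ratio in both H3K14ac libraries, at the 86.5th percentile of 17621 genes in 13HH3 and the 97.1st in 7G8. The log2 body ratio of H3K9ac was 1.78 (1.54 to 2.02) at Eed, 1.58 (1.36 to 1.80) at Suz12, 1.31 at Cbx7, 1.13 at Phc1 and 1.09 at Ezh2. It was 0.94 at Rnf2, 0.75 at Bmi1, 0.59 at Ezh1 and 0.21 (-0.44 to 0.87) at Ring1, whose body is only 1.89 kb long. The member medians were 1.11 in H3K9ac, -0.08 in 13HH3 and -0.03 in 7G8, and those of all genes 0.25, 0.00 and -0.13. Ring1 had 15 7G8 and 36 input tags in its body, a log2 ratio of -1.57 (-2.54 to -0.66).

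The annotation gives several starts for most of these genes, and tags within 1 kb of each were compared with input. The farthest upstream start of Cbx7, 38479 bp before the one used, had a log2 H3K9ac ratio of 2.89 (2.31 to 3.54), and the start used had 2.04 (1.51 to 2.61). This farthest start also had more H3K14ac, with 1.02 (0.33 to 1.74) in 13HH3 and 1.22 (0.56 to 1.93) in 7G8, where the start used had -0.01 (-0.70 to 0.69) and 0.29 (-0.35 to 0.95). The Cbx7 start 1260 bp upstream had 3.10 (2.31 to 4.01) in H3K9ac, 1.03 (0.08 to 2.05) in 13HH3 and 1.32 (0.42 to 2.30) in 7G8. Its window overlaps that of the start used. The intervals of both upstream starts overlap those of the start used in each library. At Jarid2 the start 1736 bp upstream had 3.64 (2.84 to 4.58) in H3K9ac, and the start 109512 bp downstream 1.56 (0.71 to 2.49). In 13HH3 and 7G8 the former had 2.37 and 1.49, and the latter 0.88 and 0.43. The Jarid2 start 441 bp upstream had 1.66 in 13HH3 and 0.18 in 7G8. At Bmi1 the later starts, 3355 and 4032 bp downstream, had 1.61 and 1.39 in H3K9ac and 0.42 and 0.04 in 13HH3. At Phc1 the starts 1642 and 777 bp upstream had 3.88 and 3.97 in H3K9ac and 2.85 and 3.56 in 13HH3, where the start used had 3.91 and 3.51. The windows of these starts overlap, so they share tags. The Phc1 starts 1849 and 3719 bp downstream had 2.84 and 1.84 in H3K9ac and 1.73 and 0.67 in 13HH3.

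The start of every member except Phc1 was rich in CpG. The ratio of observed to expected CpG in the 500 bp either side of the TSS was 0.99 at Bmi1, 0.96 at Ezh2, 0.94 at Eed, 0.90 at Rnf2, 0.88 at Suz12 and between 0.74 and 0.81 at Ezh1, Jarid2, Ring1 and Cbx7. The member median was 0.84 and that of all genes 0.55. Phc1 had 0.47, with 23 CpGs in the window, where Bmi1 had 133. The start of Phc1 777 bp upstream, which 8 annotated transcripts use, had 111 CpGs and a ratio of 0.88, so the low value belongs to the start with the longest coding sequence. Ezh2 and Suz12, with 120 and 110 CpGs, had 143 and 188 normalised H3K9ac tags, whereas Bmi1 and Rnf2, with 133 and 120 CpGs, had 47.5 and 84.1. Over input these were 9.54-fold (6.52 to 14.5), 13.4-fold, 4.17-fold (2.62 to 6.92) and 4.39-fold in the same order. The Bmi1 window had 22 input tags, the fewest of the 10, and none next to its start, which limits its tag count. A relation of CpG count to H3K9ac over the members was not tested. Jarid2 had 57 CpGs around the start used and 99 around the start 441 bp upstream, which 4 transcripts use, and 177 normalised H3K9ac tags.

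Short motifs were looked for on both strands from 250 bases before to 50 after each TSS. CCAAT was found at 6 members, Ezh2, Suz12, Eed, Jarid2, Cbx7 and Phc1, and in 37.5% of all promoters. GGGCGG was found at 6 members, Suz12, Jarid2, Rnf2, Ring1, Bmi1 and Cbx7, and in 44.7% of all. TATAAA was found at Jarid2, 31 bp before the TSS, and at Phc1 on the opposite strand, and in 13.5% of all. CACGTG was found at Bmi1 and in 7.78% of all, and TTTGGCG at Ezh2 and in 1.86% of all. CCGGAAG was found at 0 members and in 10.9% of all promoters. The letters AAGATGG were likewise at 0 members, with 6.84% of all. GCGCATG was at 0 members and in 4.56% of all. A match is a string of letters in the window and says nothing of binding.

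The other genes of the Polycomb system ranged in H3K9ac from below input, at Phc2, to a ratio above that of any member, at Asxl1. Of 32 such genes, 29 were called at 2-fold in H3K9ac, 10 in 13HH3 and 7 in 7G8, against 54.5%, 14.5% and 14.6% of all genes. The lists are short, and no count of a list was tested against these shares. The other PRC2 genes were called in 6 of 6 cases in H3K9ac, 3 in 13HH3 and 2 in 7G8. Mtf2, a Polycomb-like protein that brings PRC2 to CpG islands, had a log2 H3K9ac ratio of 4.33 (3.53 to 5.25), and the histone-binding subunit Rbbp7 3.58. The other Polycomb-like proteins Phf1 and Phf19 had 1.12 and 1.51.

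Of the other canonical PRC1 genes, 6 of 8 were called in H3K9ac, against 54.5% of all genes. In 13HH3 and 7G8 0 of 8 were called, against 14.5% and 14.6% of all genes. Their median log2 H3K9ac ratio was 1.54. The chromodomain gene Cbx2 had 1.94 and Pcgf2, the paralogue of Bmi1, 1.89. The lowest were Phc2, a paralogue of Phc1, with -1.11 (-1.75 to -0.49), and Scmh1 with -0.94 (-1.59 to -0.31). Both have a start far upstream of the one used, by 34057 and 41840 bp, where the ratios were -0.26 and 1.10, so the values hold for the start of the longest coding sequence.

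Of the variant PRC1 genes, 11 of 12 were called in H3K9ac, 3 in 13HH3 and 2 in 7G8, against 54.5%, 14.5% and 14.6% of all genes. Mga, a subunit of the complex with Pcgf6, had a log2 H3K9ac ratio of 3.40 and Pcgf3 2.74, whereas the co-repressor gene Bcor had 1.01 and E2f6 1.20. The deubiquitinase and H3K27 demethylase genes, which remove the marks of the Polycomb complexes, were called in 6 of 6 cases in H3K9ac, 4 in 13HH3 and 3 in 7G8. Asxl1 and Asxl2, cofactors of the deubiquitinase Bap1, had 4.35 and 3.62, and Asxl3 and the demethylase Kdm6b had 1.25 and 1.72.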

How the data were processed

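ChIP-seq libraries of H3K9ac, H3K14ac (13HH3 and 7G8) and input were analysed, 1 each. Per the labels and methods, single-end 36-base reads were aligned to mm9 with ELAND, allowing 1 mismatch. The authors deposited 1 line per read with its position, without normalization, and the score column of the deposited files holds the constant 1, which was left out. In the 13HH3 file 738619 tags (3.3%) repeat a position and strand, and in the others none does. One tag per position and strand was kept, and its 5′ end was moved by 100 bp. Tags used were 23181544 for H3K9ac, 21626227 for 13HH3, 23837354 for 7G8 and 19313142 for input. Input has 1 chromosome with a tag past its end, by 1 bp, and the other libraries have none.

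Starts came from GENCODE version M1 (mm9), with 1 TSS per gene, that of the transcript with the longest coding sequence. Counts within 2 kb were scaled to 10000000 tags, and a pseudocount of 1 was added for calls and percentiles. Ratios have conditional binomial intervals (Clopper-Pearson) and levels Poisson intervals, at 95%. No test was run, since each antibody has 1 library. Gene bodies needed a gene over 3 kb and at least 5 input tags. Members, lists and measures were chosen with earlier results of these data known. Named genes are the members, genes starting within 5 kb of them, and the 2 highest and 2 lowest of each Polycomb list by H3K9ac. Dcaf7, Aebp2, Rxrb, Slc39a7, Gm20427 and the markers Esrrb, Lum and Col1a1 were named after their values were seen. Alternatives were tried for the start, window, input, tag shift, repeated tags, pseudocount, fold and gene body. The counting functions were tested on simulated data. Tools were Python 3.11.15 with pandas 2.3.3, scipy 1.17.1, numpy 2.4.6 and matplotlib 3.10.9.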

Additional observations from a re-analysis of the deposited data

How the results depend on the processing

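Each antibody has 1 library, so no alternative leaves out a replicate, and a median counted as moved where it changed by more than the median half-width of the members' counting intervals. Of 84 alternative values of the counts and medians, 72 stayed within that limit or within 1.5 times the count, and 12 moved. Among the former, the member median of the gene body ratio changed sign near 0, in 13HH3 from -0.08 to 0.11 over the whole gene and 0.18 with input scaled over bins with few tags, and in 7G8 from -0.03 to 0.06 over the whole gene and 0.05 with the 5′-most start. Scaling input over the 10 kb bins with few tags, instead of by library totals, raised the median log2 ratio of H3K9ac, taken without the added 1, from 2.81 to 3.38 within 2 kb and from 1.11 to 1.68 in the gene body, and its run of bins from 10 to 17 kb. That scaling moves every H3K9ac ratio by 0.57, 13HH3 by 0.26 and 7G8 by -0.06 on the log2 scale. With 1 kb either side, 7G8 called 2 members instead of 5, 13HH3 called Rnf2 in place of Jarid2, and the median log2 ratio of 7G8 to 13HH3 fell from -0.15 to -0.72. At 4-fold, 13HH3 called 1 member, 7G8 called 0, and the H3K9ac run had a median of 2.5 kb. With the 5′-most start, the median share downstream was 60.4% in H3K9ac and 67.4% in 13HH3, and with each side divided by its own input it was 46.7% in H3K9ac, so no side of the TSS holds for the members together. Over the whole gene the H3K9ac body ratio was 1.40. With the start cluster that has the most transcripts, chosen after the data were seen, the log2 13HH3 ratio of Bmi1 turned from 1.68 to -0.11, since that cluster lies 3355 bp downstream. The log2 H3K9ac ratio of Bmi1 fell from 2.06 to 1.36 there. Suz12, whose cluster lies 2511 bp downstream, rose from 3.75 to 4.39 in H3K9ac and from 1.66 to 2.39 in 7G8. Of 190 alternative values of single members, 170 stayed within the half-width of their own interval. Depth limits the ratios, since input held 22 to 49 tags per member window.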

Other observations

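In the 13HH3 library, the only one that still holds tags at repeated positions, 68 of the 357 tags within 2 kb of the Phc1 start (19.1%) were repeats, against 3.3% of the whole library. At the other members the share of repeats was between 0.0% at Ezh1 and 10.3% at Jarid2. The values above count each position and strand once, so that repeats add nothing to them. Dcaf7 and Aebp2, named after their values were seen, differed between the antibodies to H3K14ac. Dcaf7 had a log2 ratio to input of -0.12 (-0.87 to 0.63) in 13HH3 and 1.00 (0.39 to 1.64) in 7G8, and Aebp2 had 1.34 (0.89 to 1.81) in 13HH3 and -0.09 (-0.63 to 0.45) in 7G8.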
